A study of Mus musculus with 8 samples.

Results

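The Schlafen genes of the mouse were followed in neutrophils that lacked the small GTPase Arf6. A list of 7 symbols was set (Slfn1, Slfn2, Slfn3, Slfn4, Slfn5, Slfn8 and Slfn9), and every probe set that the platform annotation assigns to one of them alone was taken. That gave 6 probe sets, 1 each for the genes other than Slfn9, out of 34472 probe sets on the array. All 6 were above the median of all values (5.45 on the log2 scale) in 8 of 8 arrays and so were among the 14002 probe sets tested. Slfn9 had no probe set of its own. The single probe set annotated to it is shared with its close relative Slfn8 and is described apart.

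The arrays were Affymetrix Mouse Gene 2.0 ST, a whole-transcript microarray, and the values are log2 probe set intensities normalized by the authors with Robust Multiarray Analysis (RMA). Each array held RNA of neutrophils from 5 pooled mice. The cells had moved into an air pouch, a cavity raised under the skin of the back, after lipopolysaccharide (LPS), a bacterial cell wall component, was injected into it. The 3 conditional knockout (cKO) pools came from mice homozygous for a floxed Arf6 allele and for a Cre recombinase transgene. The 3 flox control pools carried the floxed allele and no Cre, and the 2 Cre control pools carried Cre and no floxed allele. All groups received LPS, no array held unstimulated cells, and no source used here gives the promoter that drives Cre, or the strain, sex or age of the mice. The design text calls the pools of a genotype independent groups of mice.

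Schlafen proteins are a vertebrate family named after the German verb for sleeping, because the gene first described, Slfn1, held back the growth of mouse thymocytes. All share a core domain that in several members binds or cuts transfer RNA. The short mouse proteins Slfn1 and Slfn2 hold little beyond this core, the intermediate proteins Slfn3 and Slfn4 add a middle domain, and the long proteins Slfn5, Slfn8 and Slfn9 also carry a helicase-like domain. Many family members are induced by type I interferon and by LPS in myeloid cells, through the receptor Ifnar1/Ifnar2, the kinases Jak1 and Tyk2 and a complex that includes Stat2 and Irf9 and binds interferon-stimulated response elements in promoters.

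All 7 genes lie side by side on chromosome 11. In the RefSeq annotation the order is Slfn5, Slfn9, Slfn8, the pseudogene Slfn10-ps, Slfn2, Slfn1, Slfn4, Slfn3, and then Slfn14. The promoter windows, 250 bases before to 50 after each annotated start site, were searched on both strands, and the stretches shown are those in which the genes fall into separate sets. They are RefSeq sequences of build GRCm38.p6, written 5′ to 3′ on the strand of the gene. In the windows of the 3 long genes, capitals mark a match to the core of the interferon-stimulated response element, GAAA, any 2 bases, GAAA, or its reverse complement.
Slfn5, chr11:82951922-82951981, plus strand: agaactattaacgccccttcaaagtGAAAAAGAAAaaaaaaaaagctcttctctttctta
Slfn9, chr11:82991841-82991900, minus strand: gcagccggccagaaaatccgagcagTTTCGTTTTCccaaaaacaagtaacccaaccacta
Slfn8, chr11:83020824-83020883, minus strand: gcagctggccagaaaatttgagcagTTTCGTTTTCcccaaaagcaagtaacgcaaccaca

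Slfn5, Slfn8 and Slfn9 were the members with such a match, which 3.44% of all 32851 promoter windows hold. The match lay 155 bases before the start site in Slfn5, 48 in Slfn8 and 45 in Slfn9. Slfn8 has a further annotated start site, from which the same match lay at position -136. The identities below used the Slfn8 window with the match 48 bases before the start. The windows of Slfn8 and Slfn9 were 80.7% identical, whereas the other 20 of 21 pairs of members were 42.7% to 50.6% identical. The 4 short and intermediate genes instead held a site of the ETS family of transcription factors, CAGGAAGT, marked in capitals on either strand. It was searched for after these windows had been read, so its presence here is a description.
Slfn2, chr11:83065032-83065089, plus strand: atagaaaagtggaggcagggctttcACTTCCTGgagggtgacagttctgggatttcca
Slfn1, chr11:83116721-83116778, plus strand: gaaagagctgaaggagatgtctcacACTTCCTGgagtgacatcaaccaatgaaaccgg
Slfn4, chr11:83175088-83175145, plus strand: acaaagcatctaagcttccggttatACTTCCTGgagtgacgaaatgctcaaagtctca
Slfn3, chr11:83191245-83191302, plus strand: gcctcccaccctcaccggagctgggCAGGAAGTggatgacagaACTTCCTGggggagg

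The ETS site occurs in 3.33% of all windows, and Slfn3 held 2 matches. The gamma-activated site of the type II interferon response, TTC, any 3 bases, GAA, was in no member's window and in 8.3% of all windows. The NF-kB site was in the windows of Slfn9 and Slfn1 and in 4.51% of all windows. A match is a run of letters in this window and no measure of binding.

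Some facts of the series bear on every value. A probe set of Arf6 read 6.49, 6.06 and 6.20 in the cKO arrays, against 8.19, 8.20 and 7.68 in the flox controls and 7.79 and 7.86 in the Cre controls, so there every cKO array lay below every control array. The other Arf6 probe set read 6.13 to 6.49 in the cKO, 6.20 to 6.81 in the flox controls and 6.33 in both Cre controls. Its groups overlapped, and its cKO minus both controls difference was -0.15 ± 0.15 (adjusted p = 0.816 by limma). The source field of the samples names other genotypes than their titles and genotype labels do. The first of these Arf6 probe sets followed the titles and genotype labels. Sex-linked transcripts set 2 pools apart. In cKO replicate 1, Eif2s3y of the Y chromosome was at 4.08, and no other array was below 8.66. In flox control replicate 1, Xist was at 5.46, and no other array was below 7.84. The neutrophil marker Ly6g read 10.54 to 11.08 in the cKO, 10.96 to 11.47 in the flox controls and 10.66 to 10.79 in the Cre controls. Markers of other cells were also above the median of the array: the macrophage marker Adgre1 read 9.91 to 10.18 in the cKO, 9.93 to 10.53 in the flox controls and 10.33 to 10.66 in the Cre controls, and the T cell marker Cd3e read 6.15 to 6.45 in the cKO, 5.65 to 6.35 in the flox controls and 6.44 to 7.19 in the Cre controls. In such pooled cells, a smaller number of cells of a type cannot be told apart from less RNA per cell.

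None of the 6 Schlafen probe sets passed the adjusted threshold in any comparison. The ranges over the arrays are given as a description. Slfn1, Slfn4 and Slfn2 ranged over 0.123, 0.108 and 0.242 log2 units across the 8 arrays. They were also the brightest members, with means of 12.8, 14.0 and 12.8 over the 8 arrays. Slfn5, Slfn3 and Slfn8, with means of 11.8, 7.36 and 11.2, ranged over 0.629, 0.966 and 1.09. A smaller range was found in 58.2%, 84.7% and 89.0% of all tested probe sets. In these 3 genes both Cre control arrays lay above all 6 other arrays. The share of all tested probe sets with that order of arrays was not counted. Of all tested, 32.7% had no overlap between Cre and flox control arrays, and 34.4% none between cKO and Cre control arrays, in either direction. In Slfn4, too, a Cre control array was the highest, and all cKO arrays lay below the Cre controls. The comparisons asked whether loss of Arf6 goes with another Schlafen level, with the controls joined and with each control line alone, and whether the control lines differ from each other.

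**Figure D1:**
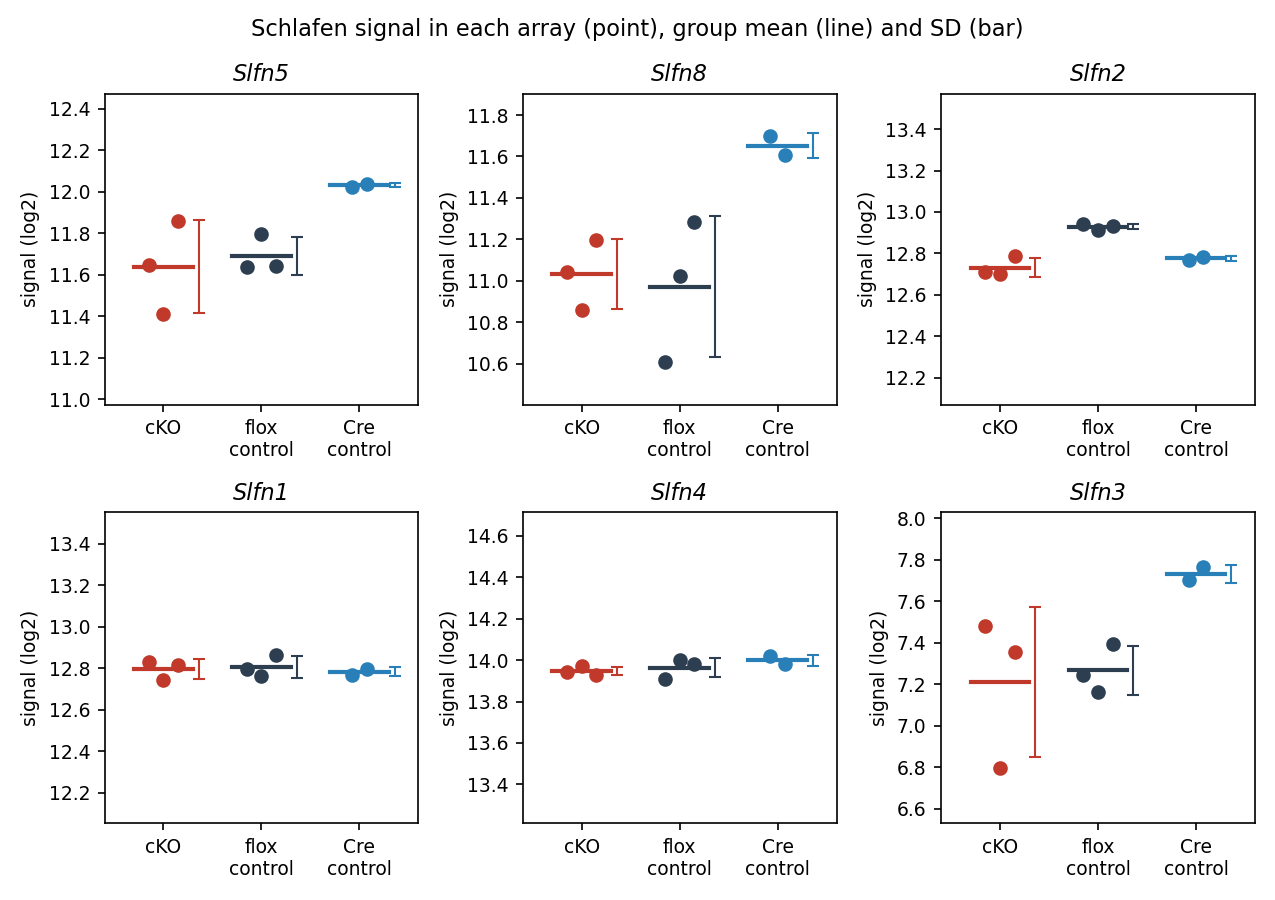
Log2 RMA level (y axis) of each Schlafen gene by genotype group (x axis), with a point for each array, a horizontal line at the group mean and a vertical bar for its SD. Each panel has its own y axis of the same span. Slfn1 and Slfn4 lie within 0.123 and 0.108 log2 units over the 8 arrays, and Slfn3, Slfn5 and Slfn8 are highest in both Cre control arrays.

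The short proteins come first. Slfn1, the founding member that slows thymocyte growth when overexpressed in mice, read 12.83, 12.74 and 12.82 in the cKO, 12.79, 12.76 and 12.86 in the flox controls and 12.77 and 12.80 in the Cre controls. The 3 groups overlapped throughout. Its difference between the cKO and both controls was -0.00 ± 0.09 (log2, SE of the limma fit), with group means of 12.80 ± 0.05 in the cKO, 12.81 ± 0.05 in the flox controls and 12.78 ± 0.02 in the Cre controls (SD, n = 3, 3 and 2). The 95% interval of this difference, as a fold before adjustment, was 0.867 to 1.15. The sign of so small a difference turned with the scaling and with the array left out.

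Slfn2, whose loss in mice breaks the quiescence of T cells and leaves their transfer RNA open to cleavage, read 12.71, 12.70 and 12.79 in the cKO, 12.94, 12.92 and 12.93 in the flox controls and 12.77 and 12.79 in the Cre controls. All 3 flox control arrays lay above the other 5, which held for no other member. The cKO was lower than the flox controls by 0.20 as log2 (-0.20 ± 0.10, SE), with adjusted p = 0.657 by limma, and the cKO and Cre control arrays overlapped (-0.04). The difference between the Cre and flox controls was -0.15 ± 0.11 (adjusted p = 0.573). The replicate SDs of Slfn2 were 0.05 in the cKO, 0.01 in the flox controls and 0.01 in the Cre controls, and limma's SE is wider because it draws each probe set's variance towards that of all probe sets.

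Of the intermediate genes, Slfn4, which LPS and type I interferon induce in mouse macrophages, read 13.94, 13.97 and 13.93 in the cKO, 13.91, 14.00 and 13.98 in the flox controls and 14.02 and 13.98 in the Cre controls. It lay 0.112 to 0.216 log2 units below the highest value on its array, and whether readings near that limit are compressed was not tested. The cKO differed from both controls by -0.03 ± 0.09 (adjusted p = 0.948 by limma), with an interval of 0.848 to 1.12 as a fold before adjustment. Only 0.0928% of tested probe sets had a smaller range over the 8 arrays, and for Slfn1 the share was 0.143%, beside a median range of 0.572 over all tested. Bright probe sets vary less: among the 293 with a mean above 12, the share with a smaller range was 2.05% for Slfn4, 2.73% for Slfn1 and 13.7% for Slfn2.

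Slfn3, studied in the rodent intestine as a factor of epithelial differentiation and in T cells, read 7.48, 6.80 and 7.36 in the cKO, 7.25, 7.16 and 7.39 in the flox controls and 7.70 and 7.76 in the Cre controls. Both Cre control arrays lay above all others, and the cKO and flox controls overlapped. The cKO was 0.52 below the Cre controls (-0.52 ± 0.19, adjusted p = 0.287 by limma), -0.06 from the flox controls and -0.29 ± 0.16 from both together (adjusted p = 0.611). The cKO mean rested on replicate 2: without that array the difference from both controls was -0.08, that from the Cre controls -0.31, and that from the flox controls 0.15.

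Of the long genes, Slfn5, which is interferon-induced in human cells, read 11.65, 11.41 and 11.86 in the cKO, 11.64, 11.80 and 11.64 in the flox controls and 12.03 and 12.04 in the Cre controls. The Cre control arrays again stood above all 6 others. The cKO minus Cre control difference was -0.39 ± 0.15 (adjusted p = 0.297 by limma), and the Cre minus flox control difference was 0.34 ± 0.15, a 1.27-fold higher level (adjusted p = 0.332). Between the cKO and flox controls it was -0.05, and between the cKO and both controls -0.22 ± 0.12 (adjusted p = 0.611), or -0.11 without cKO replicate 2. A further probe set, annotated to both Slfn5 and Slfn5os, was left out by the rule. It read 6.79 to 7.19 in the cKO, 7.04 to 7.36 in the flox controls, and 7.56 and 7.10 in the Cre controls. There the Cre control arrays overlapped both other groups. With all probe sets in the fit, its Cre minus flox control difference was 0.12 ± 0.18 (adjusted p = 0.821 by limma).

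Slfn8, a long member with a helicase-like domain, had the widest differences of the family in the comparisons with the Cre controls. It read 11.04, 10.86 and 11.20 in the cKO, 10.61, 11.02 and 11.28 in the flox controls and 11.70 and 11.61 in the Cre controls. The flox controls spread over the whole cKO range, and both Cre control arrays lay above the other 6. The Cre controls exceeded the flox controls by 0.68 ± 0.19 as log2, a 1.60-fold difference with a 95% interval of 0.25 to 1.11 (log2) before adjustment and an adjusted p of 0.142 by limma. The cKO lay -0.62 ± 0.19 from the Cre controls (adjusted p = 0.234), 0.06 from the flox controls and -0.28 ± 0.16 from both (adjusted p = 0.624). Without the 2 pools set apart by sex-linked transcripts the Cre minus flox control difference was 0.50 (adjusted p = 0.287). Flox control replicate 1 had the lowest Slfn8 value of the 8 arrays.

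The probe set shared by Slfn8 and Slfn9 was left out by the rule and cannot be assigned to either gene. It read 10.60, 9.96 and 11.08 in the cKO, 10.81, 10.62 and 10.33 in the flox controls and 11.08 and 11.28 in the Cre controls. Cre controls were again above all flox controls, and cKO replicate 3 was level with the lower Cre array. With all probe sets in the fit, the Cre minus flox control difference was 0.59 ± 0.28 (adjusted p = 0.376 by limma) and the cKO minus Cre control difference -0.63 ± 0.28 (adjusted p = 0.406). The pseudogene Slfn10-ps averaged 7.89 in the cKO, 8.10 in the flox controls and 8.13 in the Cre controls, and its Cre minus flox control difference was 0.03. Slfn14, a ribosome-associated endonuclease known from human platelet disorders, and Slfnl1, a relative outside the cluster, were too dim to be tested, with group means of at most 4.17 and 5.36.

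Counted over the family, the cKO minus both controls difference was below 0 in 6 of 6 probe sets, with a median of -0.17 beside 0.01 over all tested. Of all tested probe sets, 46.6% were below 0. None of the 6 passed an adjusted p of 0.05 (background 0.00714%, limma), none had an unadjusted p under 0.05 (background 9.52%), and none had cKO arrays apart from all control arrays (background 4.36%). The value of Slfn1 among them was -0.00. Without cKO replicate 2 the median was -0.09. Against the flox controls alone, 5 of 6 were below 0 (background 47.6%), with a median of -0.03. Without cKO replicate 2 the median was 0.04, and Slfn1, Slfn3 and Slfn5 also lay above 0. None passed the adjusted threshold (0.0429%) or the unadjusted one (8.26%), and Slfn2 was the 1 gene whose arrays did not overlap (12.2%).

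Against the Cre controls alone, 5 of 6 were below 0 (background 48.0%), with a median of -0.22. None passed the adjusted threshold (0.0714%), 3 had an unadjusted p under 0.05 (Slfn3, Slfn5 and Slfn8, background 13.5%), and 4 had cKO arrays all below the Cre controls (these 3 and Slfn4, background 34.4% in either direction). Between the controls, the Cre minus flox control difference was above 0 in 4 of 6 (background 49.2%), with a median of 0.19 beside -0.00 over all tested. None passed the adjusted threshold (0.486%), the same 3 long and intermediate genes had an unadjusted p under 0.05 (14.7%), and 4 of 6 did not overlap (32.7%): Slfn3, Slfn5 and Slfn8 were higher in the Cre controls and Slfn2 was lower. The cKO minus Cre control and the Cre minus flox control comparisons share the 2 Cre control arrays, so the values of Slfn3, Slfn5 and Slfn8 in the one are not independent of those in the other.

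**Figure D2:**
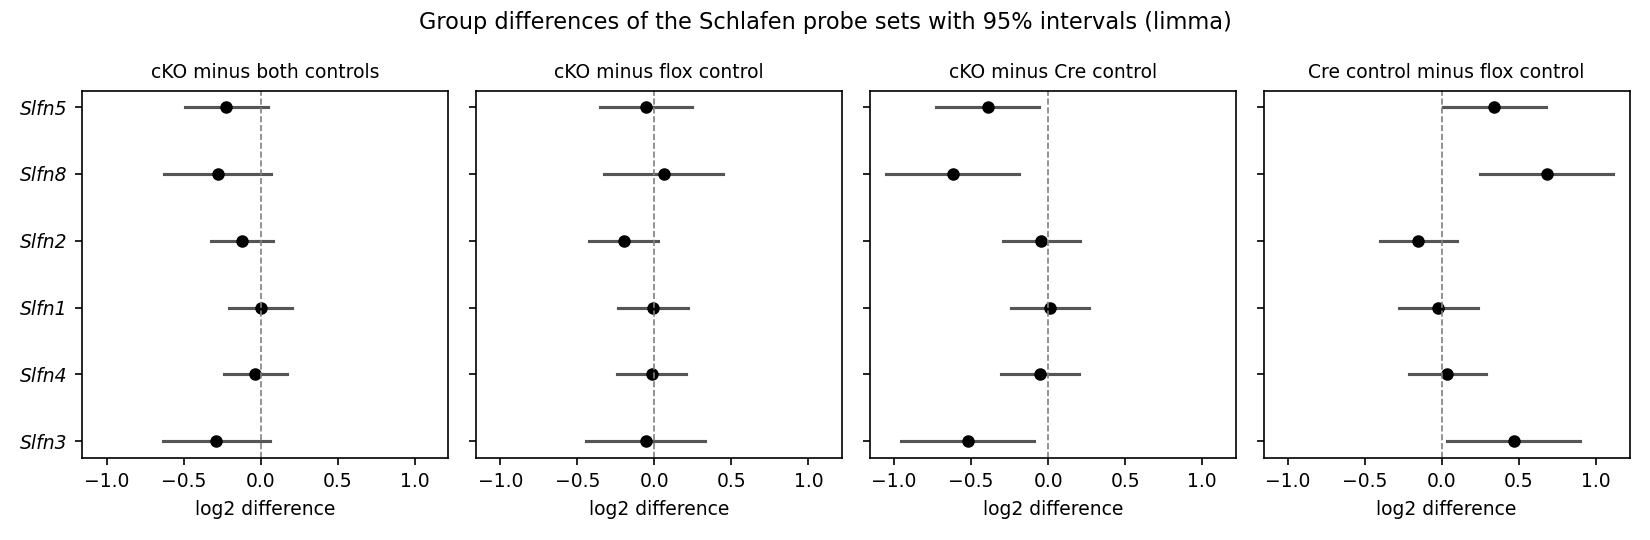
Log2 difference (x axis) of each Schlafen probe set in the 4 comparisons, with the 95% interval of the limma fit before adjustment. The widest difference is that of Slfn8 in Cre minus flox controls, 0.68 with an interval of 0.25 to 1.11, and the differences of Slfn1 and Slfn4 lie close to 0 in each comparison.

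Along the cluster, the members with both Cre control arrays above all others lay at both ends. Slfn5 and Slfn8 lie at one end, with Slfn9 between them, and Slfn3 at the other. Slfn2, Slfn1 and Slfn4, which varied less and were the brightest members, lie in the middle. Next to Slfn3 lies the long noncoding RNA gene AI662270, which averaged 8.56 in the cKO, 8.64 in the flox controls and 8.90 in the Cre controls. Its cKO minus Cre control difference was -0.34 ± 0.13 (adjusted p = 0.299 by limma) and its Cre minus flox control difference 0.26 ± 0.13 (adjusted p = 0.400). The nearest tested genes on either side of the cluster included Lig3, Rad51d, Nle1, Ap2b1 and Rasl10b. Their lowest adjusted p in the cKO against both controls was 0.397 by limma, for Rffl, a ubiquitin ligase (-0.48 ± 0.16).

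**Figure D3:**
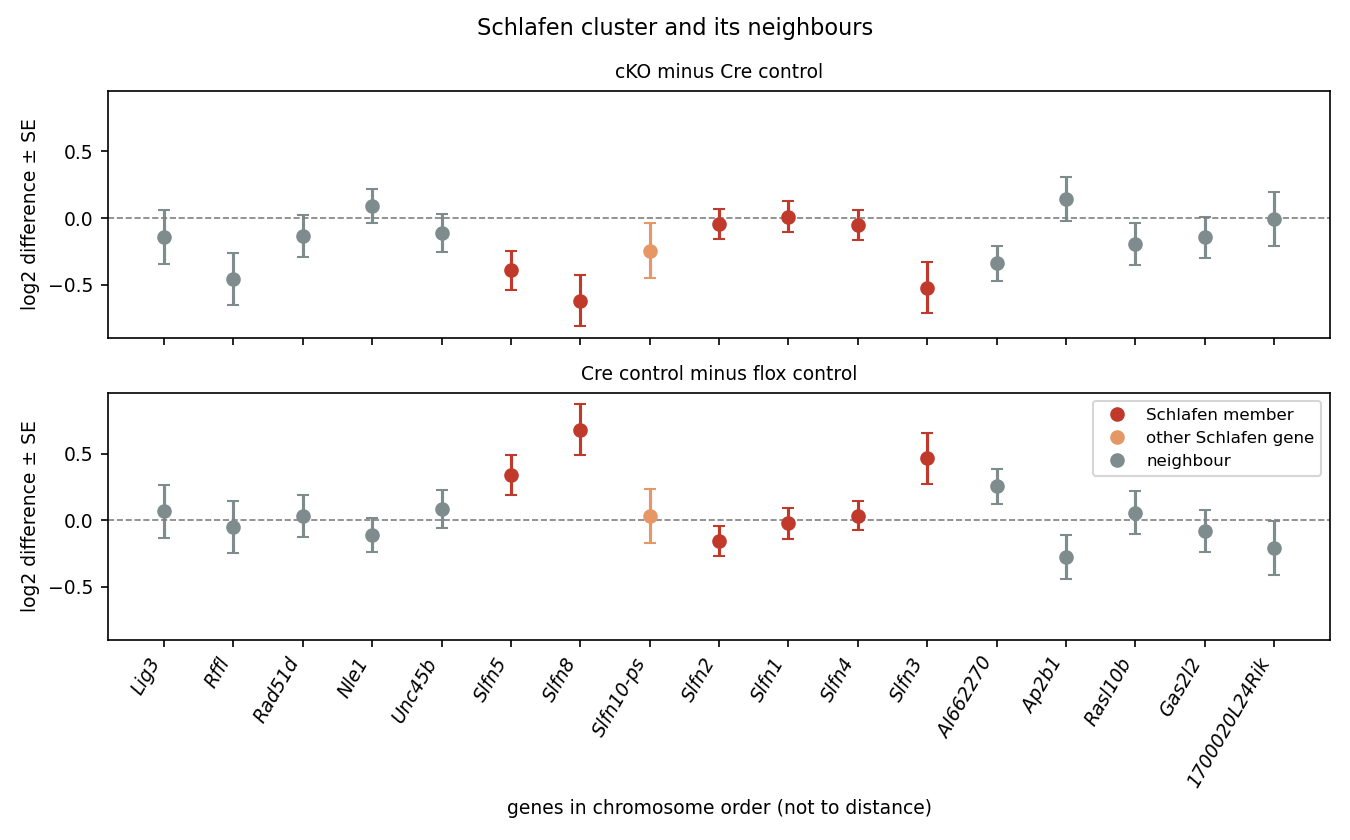
Log2 difference with its SE (y axis) of the Schlafen genes and their nearest tested neighbours in the order of the genes along the chromosome (x axis, not to scale), for cKO minus Cre controls (above) and Cre minus flox controls (below). In the lower panel Slfn8 (0.68), Slfn3 (0.47) and Slfn5 (0.34) are the highest points, and Slfn2, Slfn1 and Slfn4 lie between -0.15 and 0.04.

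The same arrays recurred as high or low. A Cre control array was the highest of the 8 in 4 of 6 members, and cKO replicate 2 was the lowest cKO array in 5 of 6, Slfn4 being the exception. In Slfn1, Slfn2, Slfn3 and Slfn5 cKO replicate 2 was also the lowest of all 8 arrays. How often these arrays were highest or lowest over all tested probe sets was not counted. Interferon-induced genes outside the family were also lowest in cKO replicate 2 and highest in the Cre controls. Their median deviation from each gene's mean was -0.15, -0.42 and 0.09 in the cKO, 0.07, 0.00 and -0.09 in the flox controls and 0.24 and 0.18 in the Cre controls. The median deviation of T and natural killer cell markers was 0.11, -0.13 and 0.00 in the cKO, -0.07, -0.08 and -0.34 in the flox controls and 0.32 and 0.19 in the Cre controls. Whether either moves the Schlafen values was not tested.

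**Figure D4:**
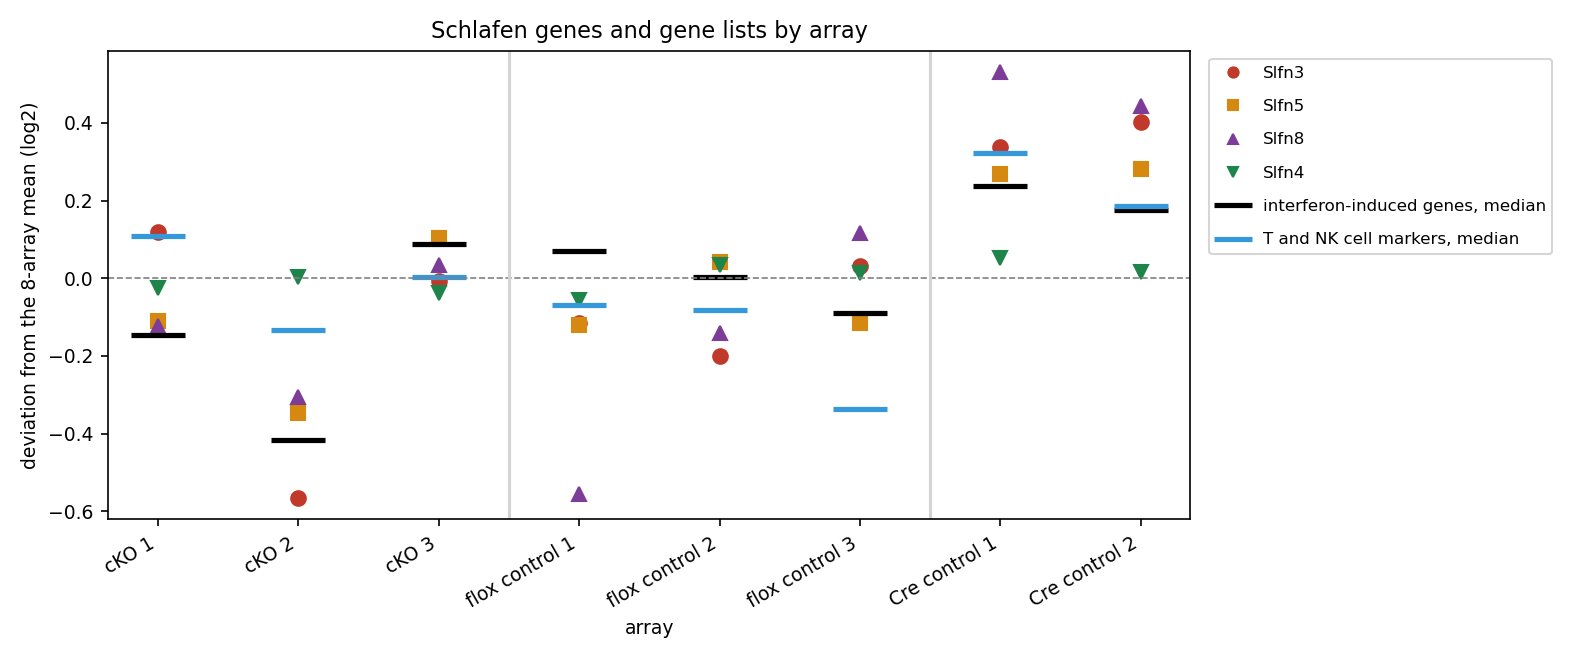
Deviation from the mean of the 8 arrays (y axis, log2) of Slfn3, Slfn5, Slfn8 and Slfn4 in each array (x axis), with the median deviation of interferon-induced genes and of T and natural killer cell markers. In cKO replicate 2 the interferon-induced median is -0.42 and Slfn3, Slfn5 and Slfn8 lie below 0, and in both Cre control arrays all of them lie above 0.

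The pathway that induces the family was described by the roles of its genes, with counts over the genes tested. Of 9 tested interferon genes, 4 were below 0 in the cKO minus both controls comparison, beside 46.6% of all tested probe sets. The median was 0.03, and -0.10 without cKO replicate 3, and the type II interferon Ifng differed by -0.33 ± 0.21. Ifng averaged 5.96 in the cKO, 5.68 in the flox controls and 6.90 in the Cre controls, so the cKO lay between the control lines. The type I interferon Ifna1 differed by -0.18 from both controls, with means of 7.64 in the cKO, 7.64 in the flox controls and 8.01 in the Cre controls. Ifnb1 was too dim to test, at 3.70 in the cKO, 3.65 in the flox controls and 3.59 in the Cre controls. Of 6 receptor chains, 4 were below 0 (median -0.10, or -0.06 without the 2 pools set apart by sex-linked transcripts), with Ifnar1, the signalling chain of the type I receptor, at -0.25 ± 0.10 and Ifngr1 of the type II receptor at 0.19. Ifnar1 averaged 11.19 in the cKO, 11.76 in the flox controls and 11.13 in the Cre controls, so the cKO was below the flox controls only. Ifngr1 averaged 11.33, 11.40 and 10.87 in the same order. Between the controls, 7 of 9 ligands (median 0.22) and 2 of 6 receptors (median -0.27) were above 0 in Cre minus flox (background 49.2%). There 4 ligands and 4 receptors had an unadjusted p under 0.05 (background 14.7%), and none passed the adjusted threshold (limma). No ligand or receptor passed the adjusted threshold in the cKO minus both controls comparison (limma). An unadjusted p under 0.05 was found for 0 of 9 ligands and 1 of 6 receptors, beside 9.52% of all tested.

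Among the 11 tested kinases and transcription factors that carry the signal, 10 were below 0 (median -0.17, background 46.6%). Without cKO replicate 2 it was 9, with a median of -0.07. The receptor kinase Tyk2 differed by -0.46 ± 0.14 (adjusted p = 0.369 by limma), Stat2 by -0.26, its partner Irf9 by -0.16, the early factor Irf1 by -0.28 and the amplifier Irf7 by -0.19 ± 0.14. Of 8 inhibitors of the pathway, 5 were below 0 and 3 above (median -0.04, and -0.01 to -0.09 with single arrays left out). The cytokine signalling suppressors Socs1 and Socs3 differed by -0.54 and -0.35, and the deconjugase Usp18, which shuts off the type I receptor, by -0.30. Irf2bp2, also on the list of inhibitors, went the other way, at 0.31 ± 0.17. None of these genes passed the adjusted threshold (limma), and 1 of the 11 and 1 of the 8 had an unadjusted p under 0.05 (background 9.52%).

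Of 37 tested interferon-induced genes outside the family, 35 were below 0 in the cKO minus both controls comparison, with a median of -0.25 beside 0.01 over all tested. Over all tested probe sets 46.6% were below 0. None of the 37 passed the adjusted threshold (limma), and 8 had an unadjusted p under 0.05, beside 9.52% of all tested. The antiviral GTPase Mx2 differed by -0.78 ± 0.25 (adjusted p = 0.389 by limma), the ADP-ribosyltransferase family member Parp9 by -0.36 and the ubiquitin-like modifier Isg15 by -0.26. Against the Cre controls alone 36 were below 0 (median -0.38, background 48.0%), and against the flox controls 31 (median -0.10, background 47.6%). Without cKO replicate 2 these counts were 32, 35 and 18 of 37, with medians of -0.14 against both controls, -0.23 against the Cre controls and 0.02 against the flox controls. Between the controls, 33 of 37 were above 0 in Cre minus flox (median 0.17), beside 49.2% of all tested. The 1 that passed the adjusted threshold (background 0.486%) was Mx1, the antiviral GTPase paired with Mx2. Mx1 was higher in the Cre controls by 1.64 ± 0.27 (adjusted p = 0.0409 by limma).

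Genes of transfer RNA cleavage and modification, the process in which Schlafen proteins act, gave no call, adjusted or at an unadjusted p under 0.05 (limma). Of 6 tested, 2 were below 0 in the cKO minus both controls comparison (background 46.6%, and 9.52% with an unadjusted p under 0.05 by limma). The median of 0.18 depended on the cKO pools, at 0.03 without replicate 1 and 0.31 without replicate 3. Rnh1, the inhibitor that holds back angiogenin and other ribonucleases, differed by 0.35, the cytosine methyltransferases Trdmt1 and Nsun2 by 0.28 and 0.22, and the 3′ processing enzyme Elac2 by -0.13.

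Marker lists of cells were compared between the control lines, where 49.2% of all tested probe sets were above 0 in Cre minus flox. Of 15 tested T and natural killer cell markers, 13 were above 0 in Cre minus flox controls (median 0.50, or 0.33 without Cre control replicate 1), and their summed level was 10.60 to 10.77 in the cKO, 10.20 to 10.57 in the flox controls and 10.94 to 10.95 in the Cre controls (log2 of the summed intensities). Of 16 macrophage and monocyte markers 12 were above 0 (median 0.22, or 0.14 without flox control replicate 3). Their summed level was 14.17 to 14.27 in the cKO, 13.98 to 14.26 in the flox controls and 14.12 to 14.16 in the Cre controls. By that sum the Cre controls lay within the range of the flox controls and below the cKO, although 12 of the 16 markers were above 0. Such a sum weighs the brightest genes most. The brightest here, Cd68 and Ly6c2, averaged 12.49 and 12.55 in the flox controls and 12.32 and 12.36 in the Cre controls. Of 10 dendritic cell and class II markers 7 were above 0 (median 0.24, or 0.15 without flox control replicate 1). Of 5 eosinophil, basophil and mast cell markers 4 were above 0, with a median of 0.50 that was 0.95 without Cre control replicate 1 and 0.20 without replicate 2. Of 4 B and plasma cell markers 2 were above 0 (median 0.05, or -0.05 without flox control replicate 3). Of 7 fibroblast and pouch lining markers 2 were above 0 (median -0.14), a sign that turned without Cre control replicate 1 (0.14) or flox control replicate 1 (0.11). Of 14 neutrophil markers 13 were below 0 (median -0.17). Their summed level was 16.13 to 16.19 in the cKO, 16.19 to 16.22 in the flox controls and 16.01 to 16.06 in the Cre controls. No marker passed the adjusted threshold in Cre minus flox controls (limma). An unadjusted p under 0.05, which 14.7% of all tested probe sets had, was found for 9 of 15 T and natural killer cell, 3 of 16 macrophage, 5 of 10 dendritic cell and 5 of 14 neutrophil markers, 1 of 5 eosinophil, basophil and mast cell markers and no B cell or fibroblast marker. The part of these cells in the Schlafen values was not tested.

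The genes whose pattern over the 8 arrays was most like each member were found by Pearson's r over all tested probe sets, as a description. They were Adam30 (r = 0.992), of the metalloprotease family, and the zinc finger factor Hivep1 (0.983) for Slfn8, and the tubulin Tuba8 (0.986) and Adap2 (0.978), a GTPase-activating protein of the ARF family, for Slfn5. For Slfn3 they were the intraflagellar transport gene Ift80 (0.970) and the fucosyltransferase gene Pofut1 (0.964). Among the narrow-ranging genes they were Sec22b (0.964), a vesicle fusion protein, and Ankrd22 (0.957) for Slfn2, H2-Ob (0.956) and Tmod2 (0.946) for Slfn1, and D630022N01Rik (0.967) and the transcription factor Foxp1 (0.961) for Slfn4. Each pair shares the same 8 RNA pools, and the highest of many correlations over 8 arrays is high by selection.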

How the data were processed

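Neutrophil RNA from 8 pools of 5 mice was hybridized to Affymetrix Mouse Gene 2.0 ST arrays. The deposited values are log2 intensities, background-subtracted and normalized by the authors with RMA in the Expression Console software, per the labels' design text. No source used here gives its version or the genome build, and no further scaling was applied. Groups follow the titles and genotype labels: 3 cKO, 3 flox control and 2 Cre control arrays. A further Cre control pool, implied by the design text, is not analysed here.

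Among 34472 probe sets, 23521 had 1 symbol in the platform annotation, 1814 several and 9137 none. Tested were the 14002 with 1 symbol and a value over the overall median (5.45) in at least 2 arrays. A single limma 3.58.1 fit (R 4.3.3) of 3 groups with moderated variance gave two-sided tests, adjusted over all 14002 after Benjamini and Hochberg, with a threshold of 0.05 and 5 residual plus 4.69 prior degrees of freedom. The same steps were tested on simulated data. Alternatives were other filters, scalings, variance models, array weights, fits of the compared groups alone and leaving out arrays.

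The members and gene lists were chosen with earlier results of these data known. Genes were named by rule: all members, Arf6, up to 4 genes per interferon and transfer RNA list with the smallest p in the cKO against both controls, of which those with clear roles are given, plus Stat2, Irf7, Irf9 and Ifnar1, the 2 most similar genes per member, and neighbours of the cluster. Promoter windows came from RefSeq (GRCm38.p6), which held all 7 members, and were searched with Python 3.11.15. Protein sequences were not used, and 1 item of the rule is not reported here. Precision is limited by the number of arrays.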

Additional observations from a re-analysis of the deposited data

How the results depend on the processing

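Over 426 values of the 6 members under the alternatives, 402 kept their direction and their side of the threshold, 23 turned and 1 came to pass: with array weights, Slfn8 was 0.64 higher in the Cre controls than in the flox controls (adjusted p = 0.0309, limma), so the count of members past the threshold there was 1, when 819 of 14002 probe sets passed. In the other alternatives, the count of members past the threshold was 0 in the 4 comparisons. The smallest adjusted p of a member in a comparison of the cKO was 0.0798. Values that turned were at most 0.15 in size. For Slfn1, the cKO minus both controls difference was 0.0217 with array weights, 0.0200 with median scaling and 0.0326 with quantile scaling. Its cKO minus flox control difference was 0.0224 with array weights and 0.0247 with quantile scaling, its Cre minus flox control difference 0.0014 with array weights, and its cKO minus Cre control difference -0.0051 without flox control replicate 1 and cKO replicate 1. In the cKO minus flox control comparison, Slfn3 was 0.0771 with array weights and Slfn8 was -0.124 without those 2 pools. Leaving out each array in turn, or those 2 pools together, gave, for Slfn1, -0.0199 to 0.0268 in the cKO against both controls, -0.0051 to 0.0384 against the Cre controls, -0.0348 to 0.0169 against the flox controls and -0.0457 to 0.0054 between Cre and flox controls. In the cKO against the flox controls it gave -0.20 to 0.15 for Slfn3, -0.0435 to 0.0015 for Slfn4, -0.163 to 0.0618 for Slfn5 and -0.12 to 0.22 for Slfn8. With the same arrays left out, the median over the members ranged from -0.24 to -0.09 in the cKO against both controls, -0.29 to -0.17 against the Cre controls, -0.10 to 0.04 against the flox controls and 0.16 to 0.22 between Cre and flox controls. The causes were not tested. Where a Cre control array was left out, the remaining one was assumed to vary like the other groups. The gene list counts without single arrays were added after seeing the data. No paired analysis was possible because the groups share no replicate numbers in the labels.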
